A study of Homo sapiens with 9 samples.

Results

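Enzymes that write, erase or maintain DNA methylation, and the core of Polycomb repressive complex 2, 10 genes in all, were followed through activin and hepatocyte growth factor (HGF) treatment of HCT116 cells, a human colorectal carcinoma line. The genes were taken by symbol from the deposited expression table and are DNMT1, UHRF1, DNMT3A, DNMT3B, TET1, TET2, TET3, EZH2, EED and SUZ12. All 10 were found among the 33861 rows of the table, and all 10 were among the 20988 genes that passed edgeR's filter on low counts. The 9 RNA sequencing libraries, depleted of ribosomal RNA, form 3 groups of 3. Control cells are those labelled NC, for which no factor is named. Activin-treated cells were exposed to activin A at 100 ng/mL, over 5 days. Activin + HGF-treated cells had the same activin step and then HGF at 20 ng/mL, also over 5 days. Whether activin stayed in the medium during the HGF step is not given in the sources used here. No group had HGF alone or activin withdrawn without HGF, so HGF and any loss of activin cannot be told apart. How long the control cells were kept in culture is not given in the sources used here, and the doubly treated cells were cultured longer than the activin-treated cells, so treatment and time in culture cannot be told apart. All groups came from 1 cell line, and nothing says that the libraries of a group came from separate cultures, so the p-values measure the spread between these libraries, which may be technical.

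DNA methyltransferases place methyl groups on cytosines that are followed by guanine. DNMT3A and DNMT3B set new marks, and DNMT1 copies the existing marks onto the new strand behind the replication fork, where UHRF1 recruits it to hemimethylated DNA. The TET dioxygenases oxidise methylcytosine and so begin its removal. Polycomb repressive complex 2 methylates histone H3 at lysine 27 through EZH2 or its relative EZH1, with SUZ12 as the scaffold and EED as the subunit that reads the finished mark. HCT116 is a much used line for the study of tumour methylation, since many of its promoter CpG islands are densely methylated.

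Depth was 57453977 to 77016167 counts per library, and the TMM factors that scale libraries for composition ranged from 0.783 to 1.17. Replicate libraries correlated at 0.969 or more (Pearson's r across genes on log2 CPM, counts scaled to library size and TMM factor), and no libraries of a group were copies of each other (chi-square of their counts divided by its degrees of freedom, 60.6 to 276). Activin replicate 2 stood apart from the other 2 activin libraries, with lower DNMT3A, TET1, TET2 and EZH2. Its TMM factor was 0.988 against 1.16 and 1.17. Results on the 10 genes are therefore also given without it where that changed a call. List counts are given without it where that moved them by over 1.5 times. By the same chi-square, activin + HGF replicate 1 stood apart from its group as well, at 254 and 276 against 64.8 between the others. Its TMM factor was 0.783 against 0.926 and 0.899. The 10 genes were also fitted without activin + HGF replicate 1, but list counts are not given without it. As a check of the cell type, 6 of 10 colorectal epithelial markers were above 1 CPM in every library, whereas CDX1, VIL1, CEACAM5 and LGR5, markers of the differentiated or stem cell compartments of the gut, reached at most 30 counts. The summed epithelial markers ranged over 2661 to 2930 CPM among control libraries, 1877 to 3121 among activin libraries and 3592 to 3963 among activin + HGF libraries. The 10 markers of blood, vessel and stromal cells summed to 28 to 29.4, 62.5 to 70.6 and 51 to 63.9 CPM, of which 2 were above 1 CPM in every library. Of these, PTPRC and CD3E reached at most 11 counts, DCN at most 8 and PECAM1 at most 27, in any library, while the macrophage gene CD68 and the collagen gene COL1A1 rose in activin-treated cells (log2 fold change 2.83 and 1.03, edgeR quasi-likelihood test, adjusted p = 0.00131 and 0.00205). COL3A1, another stromal collagen of the list, went the other way, with 59, 144 and 212 counts in control libraries, 3, 0 and 0 in activin libraries and 14, 21 and 27 in activin + HGF libraries (adjusted p = 0.00111 for activin and 0.0163 for the HGF step). The part of such RNA in the results below was not tested.

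To compare levels between genes, FPKM was used, which divides counts by gene length and library size. In control cells UHRF1 (20.7 ± 2.53 FPKM, mean ± SD, n = 3) and DNMT1 (20.5 ± 0.706) were the most abundant of the 10 transcripts and overlapped each other. EZH2 followed at 14.5 ± 1.39, apart from its neighbours in the order. SUZ12 (7.08 ± 1.07) and DNMT3B (6.49 ± 0.384) overlapped, and TET3 (3.27 ± 0.206) and EED (2.27 ± 0.197) each stood alone. DNMT3A (1.19 ± 0.391) overlapped TET2 (0.893 ± 0.0945), and TET1 was lowest at 0.24 ± 0.0361 FPKM. After activin, EZH2 (13.8 ± 4.41 FPKM), DNMT1 (11.7 ± 0.901), UHRF1 (10.2 ± 1.17) and DNMT3B (9.2 ± 1.07) formed a chain in which each overlapped the next. After activin and HGF, DNMT1 (7.26 ± 1.73 FPKM) and UHRF1 (6.82 ± 1.30) again led, and EZH2 (4.57 ± 0.716) overlapped DNMT3B (4.38 ± 0.141). TET1 had the lowest mean of the 10 in each group, at 0.13 ± 0.0529 FPKM in the last, and overlapped TET2 in activin-treated cells only.

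The promoter stretches of DNMT1, UHRF1, EZH2 and SUZ12 are shown because these 4 genes had the lowest p-values for a difference between control and doubly treated cells. Each runs from 200 bases before to 30 bases after a RefSeq transcript start in GRCh38.p14, on the strand of the gene. Capitals mark exact matches, on either strand, to the E2F words TTTCCCGC, TTTGGCGC, TTTCGCGC or TTTGCCGC and to the CCAAT box.
DNMT1, chr19:10194924-10195153, minus strand: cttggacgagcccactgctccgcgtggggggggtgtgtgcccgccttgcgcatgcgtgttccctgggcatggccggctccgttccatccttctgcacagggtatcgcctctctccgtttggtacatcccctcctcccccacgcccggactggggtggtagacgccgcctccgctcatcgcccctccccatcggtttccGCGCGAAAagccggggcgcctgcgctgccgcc
UHRF1, chr19:4909301-4909530, plus strand: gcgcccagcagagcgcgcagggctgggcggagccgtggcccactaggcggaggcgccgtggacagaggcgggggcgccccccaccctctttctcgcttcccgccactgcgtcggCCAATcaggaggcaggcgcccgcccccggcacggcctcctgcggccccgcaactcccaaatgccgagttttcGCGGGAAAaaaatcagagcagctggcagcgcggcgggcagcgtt
EZH2, chr7:148884262-148884491, minus strand: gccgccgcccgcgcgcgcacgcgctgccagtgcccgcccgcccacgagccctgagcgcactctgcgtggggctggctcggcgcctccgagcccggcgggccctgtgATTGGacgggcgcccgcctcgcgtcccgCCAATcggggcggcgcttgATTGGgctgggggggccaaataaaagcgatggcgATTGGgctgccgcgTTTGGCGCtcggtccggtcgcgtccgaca
SUZ12, chr17:31936807-31937036, plus strand: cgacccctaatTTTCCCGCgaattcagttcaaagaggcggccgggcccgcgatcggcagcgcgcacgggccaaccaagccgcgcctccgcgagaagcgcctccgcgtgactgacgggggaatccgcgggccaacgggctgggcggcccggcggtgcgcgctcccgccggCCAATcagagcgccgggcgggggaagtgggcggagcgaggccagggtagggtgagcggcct
The first base of an E2F word, read on the printed strand, lay 2 bases before the start in DNMT1, 14 before it in UHRF1 and 189 before it in SUZ12. The DNMT1 word thus runs across the start. In EZH2 the word began at +2, where the count begins with the start base itself. In windows of 300 bases (250 before and 50 after the start), 4 of the 10 genes held such a word in the window nearest to the gene's start, and these were the 4 printed. Of all 35116 RefSeq windows 3.315% held a match. CCAAT was found in 5 of the 10 nearest windows and in 34.61% of all windows, and the cell cycle element TTTGAA, searched on both strands as well, in 2 of 10 and in 15.16%. The 4 windows held 30, 36, 46 and 40 CpG dinucleotides in the order printed, against a median of 14 over all windows. Each E2F word holds a CpG itself, and the share over all windows was not matched for CpG content. Among nearest windows without an E2F word, that of TET3 held 45 CpG, and the rest held 3 (DNMT3B) to 18 (DNMT3A). For DNMT1 and UHRF1 the RefSeq start lies 36333 and 6421 bases inside the gene as the table bounds it. These are matches of letters only, and no binding was measured here.

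After activin alone 3 of the 10 genes were lower, DNMT1, UHRF1 and SUZ12, and none rose. With HGF after activin EZH2, DNMT3B and TET3 were lower, and again none rose. Against control cells, 6 were lower after both factors, namely DNMT1, UHRF1, EZH2, SUZ12, TET2 and TET3, and none was higher. The threshold was a Benjamini-Hochberg adjusted p of 0.05 in edgeR's quasi-likelihood test, adjusted over all 20988 genes. In the activin comparison 18% of all genes tested were called, 8.41% lower and 9.58% higher. In the HGF step 12.9% were called, 5.45% lower and 7.41% higher. For both factors against control 31.4% were called, 15% lower and 16.4% higher. The median log2 fold change of the 10 genes was -0.19, -0.66 and -0.97 in the same order, against 0.02, -0.04 and -0.03 over all genes. All 10 fold changes were below 0 in the HGF step and against control after both factors, and 7 of 10 in the activin comparison. Comparisons share libraries (control in the 2 against control, activin in the 2 that involve activin alone) and are not independent of each other. By a rule that also asks for a 2-fold change, 1, 1 and 5 of the 10 genes were called, against 11.4%, 8.09% and 21.5% of all genes. The libraries of the compared groups did not overlap for 4, 5 and 9 of the 10 genes, and this was so for 42.2%, 32.7% and 53.8% of all genes. These are whole cultures, in which less RNA per cell and fewer cells of a kind that carries the RNA cannot be told apart.

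**Figure D1:**
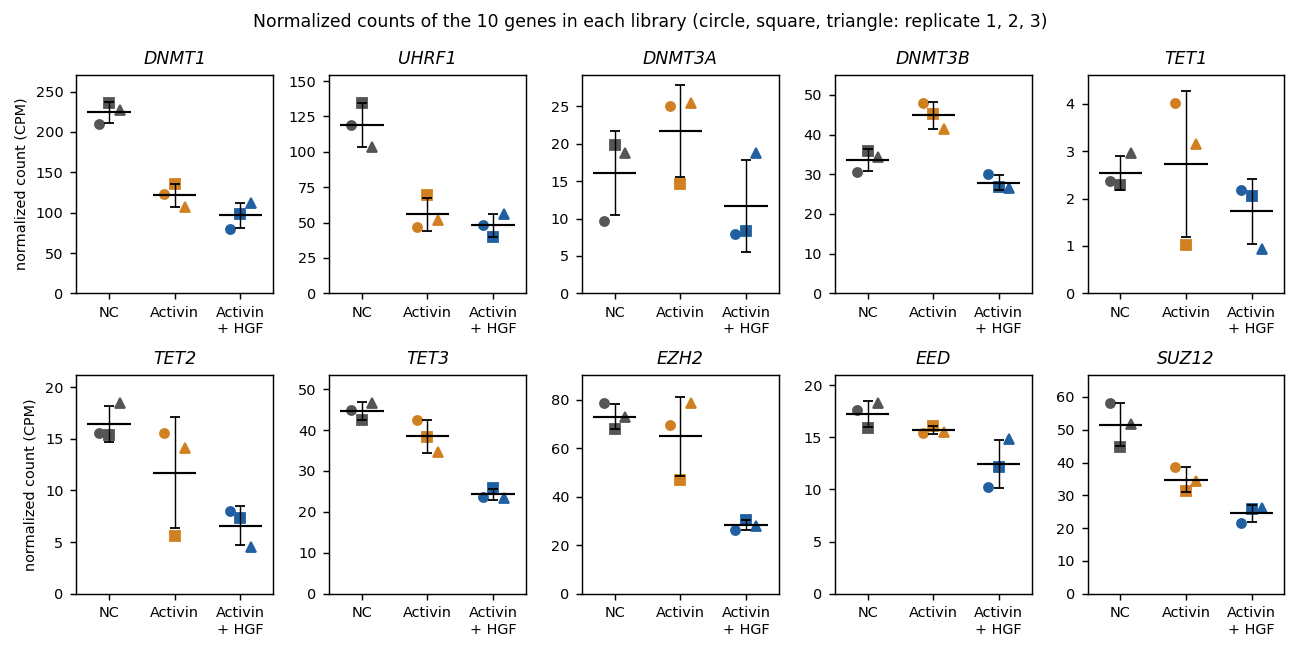
Normalized counts of the 10 genes in CPM (vertical axes, each starting at 0) in the 3 groups; every point is a library (circle, square and triangle for replicates 1, 2 and 3), the long bar is the mean and the whiskers are 1 SD. DNMT1 and UHRF1 drop after activin, EZH2, TET3 and DNMT3B drop at the HGF step, and activin replicate 2 (square) lies below the other activin libraries for TET1, TET2, DNMT3A and EZH2.

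The maintenance genes fell at the activin step. DNMT1 (ENSG00000130816, chromosome 19, 10133345 to 10231286, minus strand) was at 210.3, 236 and 227 CPM in control cells, at 123, 135 and 107 CPM in activin-treated cells and at 79.7, 98.2 and 112 CPM in activin + HGF-treated cells, in the order of the replicates. Control libraries were all above the treated ones, and the 2 treated groups overlapped. DNMT1 fell by 45.8% with activin (log2 fold change -0.88 ± 0.173 SE, adjusted p = 0.00634) and was 2.32-fold lower than control after both factors (-1.22 ± 0.174, adjusted p = 0.000707). The HGF step itself gave -0.33 (95% interval -0.71 to 0.05, adjusted p = 0.225). With library totals in place of TMM, a scaling that moves the median of all genes to -0.38 in this comparison, it passed (-0.66, adjusted p = 0.0381). In the annotation used here DNMT1 shares 83 exon bases with S1PR2 on the same strand, whose summed count was 9.42% of that of DNMT1.

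UHRF1 (ENSG00000276043, chromosome 19, 4903080 to 4962154, plus strand) is the partner that brings DNMT1 to the fork. Its levels were 119, 134 and 103 CPM in control cells, 47, 69.2 and 51.9 CPM after activin and 48, 39.9 and 56.4 CPM after activin and HGF. Every control library lay above every treated library. UHRF1 fell by 52.8% with activin (-1.08 ± 0.206, adjusted p = 0.00554) and was 2.47-fold lower than control after both factors (-1.30 ± 0.207, adjusted p = 0.00123). The HGF step gave -0.22 (95% interval -0.67 to 0.23, adjusted p = 0.513). The DNMT1 and UHRF1 calls against control held in all 9 fits that left out a library, activin replicate 2 among them.

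Of the methyltransferases for new marks, DNMT3B was lower at the HGF step. DNMT3B (ENSG00000088305, chromosome 20, 32762385 to 32809356, plus strand) was at 30.5, 35.8 and 34.3 CPM in control cells, 47.9, 45.3 and 41.3 CPM after activin and 30.1, 26.9 and 26.6 CPM after both factors. The activin libraries were above all others. With activin the change was 0.42 (95% interval 0.07 to 0.77) and missed the threshold (adjusted p = 0.0939, and 0.0429 with DESeq2). At the HGF step DNMT3B fell by 37.9% (-0.69 ± 0.158, adjusted p = 0.0216), and against control it was at -0.27 (95% interval -0.62 to 0.08, adjusted p = 0.223, but -0.54 and adjusted p = 0.0269 with library totals). The call at the HGF step was lost in 4 of 9 fits that left out a library, with adjusted p = 0.05 without control replicate 3, 0.0629 without activin replicate 1, 0.07 without activin + HGF replicate 2 and 0.0639 without activin + HGF replicate 3. Whether the change at the HGF step differed from that at the activin step was tested after the data were seen. For DNMT3B the difference was -1.11 ± 0.267 (adjusted p = 0.0309), the only one of the 10 to pass, against 9.15% of all genes called, 4.66% below 0 and 4.49% above 0, and 9.13% with a 2-fold difference as well. The DNMT3B call was lost in 5 of 9 fits, with adjusted p between 0.0627 and 0.0964 when control replicate 1 or 3, activin replicate 1 or activin + HGF replicate 2 or 3 was left out.

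DNMT3A (ENSG00000119772, chromosome 2, 25227855 to 25342590, minus strand) varied widely between replicates. It was at 9.7, 19.9 and 18.8 CPM in control cells, 25.1, 14.6 and 25.4 CPM after activin and 7.99, 8.27 and 18.8 CPM after activin and HGF. In each group 1 library stood off from the other 2, and all groups overlapped. None of its 3 comparisons passed the test, with log2 fold changes of 0.43 (95% interval -0.44 to 1.30, adjusted p = 0.517) for activin, -0.89 (-1.77 to -0.02, adjusted p = 0.158) for the HGF step and -0.47 (-1.34 to 0.41, adjusted p = 0.404) for both. Without activin + HGF replicate 3 the HGF step was at -1.42 and passed (adjusted p = 0.0452).

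TET3 was the TET dioxygenase with the highest level. TET3 (ENSG00000187605, chromosome 2, 73986404 to 74108176, plus strand) was at 45, 42.3 and 46.5 CPM in control cells, 42.6, 38.2 and 34.5 CPM after activin and 23.5, 25.9 and 23.5 CPM after both factors. The doubly treated libraries were below all others. TET3 fell by 36.8% at the HGF step (-0.66 ± 0.157, adjusted p = 0.0245) and was 1.84-fold lower than control after both factors (-0.88 ± 0.158, adjusted p = 0.00241), whereas activin alone gave -0.21 (95% interval -0.56 to 0.13, adjusted p = 0.398). The call at the HGF step was lost in 4 fits, with adjusted p = 0.0549 without control replicate 3, 0.0674 without activin replicate 1, 0.0548 without activin + HGF replicate 2 and 0.0693 without activin + HGF replicate 3. The call against control held in 9 of 9.

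TET2 (ENSG00000168769, chromosome 4, 105145875 to 105279816, plus strand) was at 15.5, 15.3 and 18.4 CPM in control cells, 15.5, 5.56 and 14.1 CPM after activin and 7.99, 7.31 and 4.51 CPM after activin and HGF. Apart from activin replicate 2, activin-treated cells were close to control. TET2 was 2.49-fold lower than control after both factors (-1.32 ± 0.365, adjusted p = 0.0202). This call was lost without control replicate 3 (adjusted p = 0.0655) or activin + HGF replicate 3 (0.0667). It was also lost with limma on log2(FPKM + 0.1) (adjusted p = 0.0536) and on log2(FPKM + 1) (adjusted p = 0.0572). The HGF step gave -0.83 (adjusted p = 0.153), and -1.17 with adjusted p = 0.0137 when activin replicate 2 was left out. Activin alone gave -0.49 (95% interval -1.28 to 0.31, adjusted p = 0.403).

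TET1 (ENSG00000138336, chromosome 10, 68560337 to 68694487, plus strand) was the least abundant of the 10, with 1455 counts over the 9 libraries. It was at 2.37, 2.29 and 2.96 CPM in control cells, 4.02, 1.02 and 3.15 CPM after activin and 2.19, 2.06 and 0.936 CPM after both. The activin libraries spanned 1.02 to 4.02 CPM, which takes in all control libraries, while the doubly treated libraries all lay below control. No comparison passed, and the intervals were wide, for example -0.98 to 1.19 for activin against control (log2 fold change 0.11, adjusted p = 0.916). Without activin replicate 1 that value changed sign to -0.23 (adjusted p = 0.845).

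**Figure D2:**
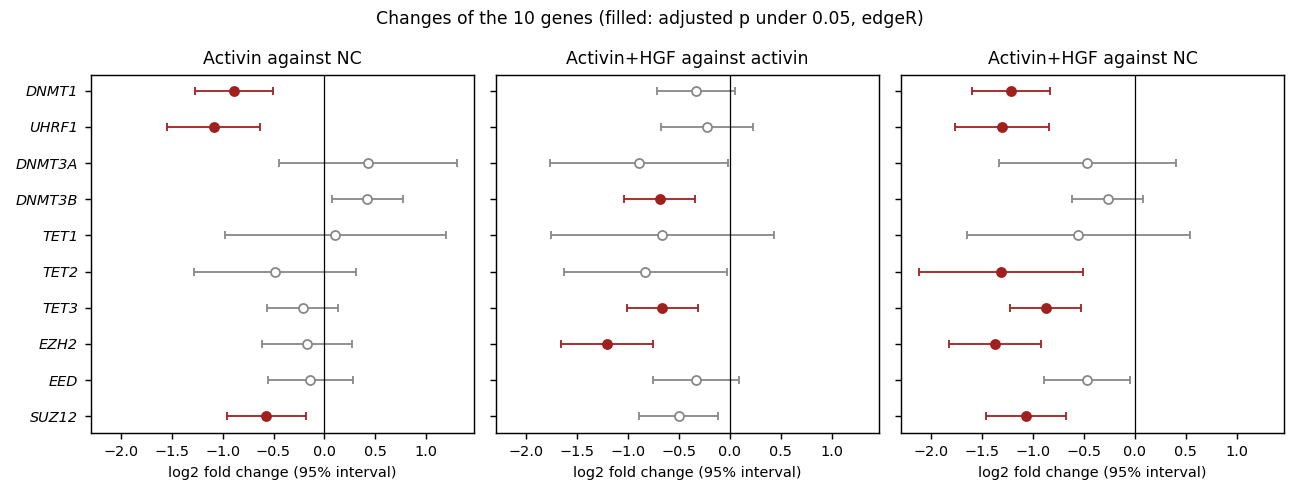
Log2 fold changes of the 10 genes (horizontal axes) in the 3 comparisons with 95% intervals; filled points passed the test at an adjusted p under 0.05. DNMT1, UHRF1 and SUZ12 are filled for activin against NC, EZH2, DNMT3B and TET3 for activin + HGF against activin, and all points lie left of 0 in the panels with activin + HGF.

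Among the core subunits of Polycomb repressive complex 2, the catalytic EZH2 changed at the HGF step. EZH2 (ENSG00000106462, chromosome 7, 148807383 to 148884321, minus strand) was at 78.4, 67.8 and 72.7 CPM in control cells, 69.5, 46.7 and 78.5 CPM after activin and 26.3, 30.4 and 27.9 CPM after activin and HGF. Control and activin libraries overlapped, and all 6 were above the doubly treated ones. EZH2 fell by 56.5% at the HGF step (-1.20 ± 0.204, adjusted p = 0.00751) and was 2.59-fold lower than control after both factors (-1.37 ± 0.204, adjusted p = 0.00088). Both calls held in 9 of 9 fits that left out a library. Activin alone gave -0.17 (95% interval -0.61 to 0.27, adjusted p = 0.627), and 0.02 (adjusted p = 0.95) without activin replicate 2. The difference between the steps was -1.03 ± 0.342 (adjusted p = 0.0876). Without activin replicate 2 it was -1.41 and passed (adjusted p = 0.00744), as did the opposite difference of UHRF1, 1.23 (adjusted p = 0.0462). With all 9 libraries the difference was 0.87 for UHRF1, 0.55 for DNMT1 and -0.45 for TET3. None of these passed (adjusted p = 0.165, 0.287 and 0.338 in the edgeR test).

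SUZ12 (ENSG00000178691, chromosome 17, 31937007 to 32001038, plus strand) was lower in each successive group. It was at 58.1, 44.9 and 51.8 CPM in control cells, 38.7, 31.2 and 34.3 CPM after activin and 21.5, 25.8 and 26.3 CPM after both factors, with no overlap between any of the 3 groups. SUZ12 was 2.10-fold lower than control after both factors (-1.07 ± 0.177, adjusted p = 0.00155), a call kept in 9 of 9 fits. The fall of 32.7% with activin (-0.57 ± 0.176, adjusted p = 0.0473) was near the threshold and was lost in 8 of 9 fits, with adjusted p between 0.0668 and 0.249, and kept only when activin + HGF replicate 1 was left out. It was also lost with library totals (adjusted p = 0.158). At the HGF step the change was -0.50 (95% interval -0.89 to -0.11, adjusted p = 0.0855), and -0.57 with adjusted p = 0.0397 without activin replicate 2. It also passed with library totals (-0.85, adjusted p = 0.0308) and DESeq2 (adjusted p = 0.0332).

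EED (ENSG00000074266, chromosome 11, 86244753 to 86278813, plus strand) had the smallest fold change of the 3 subunits after both factors. It was at 17.6, 15.9 and 18.3 CPM in control cells, 15.4, 16.1 and 15.5 CPM after activin and 10.3, 12.2 and 14.9 CPM after both. The doubly treated libraries were below all others. Still, no comparison of EED passed the test, with -0.14 (95% interval -0.56 to 0.28, adjusted p = 0.684) for activin, -0.33 (-0.76 to 0.09, adjusted p = 0.266) for the HGF step and -0.47 (-0.89 to -0.05, adjusted p = 0.0832) for both. The last passed with library totals (-0.73, adjusted p = 0.0285) and DESeq2 (adjusted p = 0.0437). EZH2 and SUZ12 have pseudogene copies in the human genome, and how the counting treated reads that fit several places is not given in the sources used here.

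To see whether genes of a pathway kept their balance, ratios of FPKM were formed within each library, 8 ratios in 24 comparisons. With 3 libraries against 3 a two-sided exact permutation test cannot give a p below 0.1, nor, after adjustment over the 24, below 0.267, so the ratios are read by size and overlap. The ratio of EZH2 to EZH1 moved furthest. EZH2 was at 3.59, 3.43 and 3.66 times the FPKM of EZH1 in control cells, at 3.23, 2.36 and 3.21 times after activin and at 0.668, 1.13 and 1.18 times after both factors. On the log2 scale the mean was 1.83 ± 0.0494, 1.54 ± 0.257 and -0.06 ± 0.456, and no group overlapped another (exact permutation p = 0.1 for each comparison). EZH1 itself was at 33.8, 30.7 and 30.7 CPM in control cells and at 60.9, 41.4 and 36.7 CPM after both (log2 fold change 0.55, edgeR adjusted p = 0.0699). The log2 ratio of EZH2 to SUZ12 was 1.04 ± 0.0830 in control cells, 1.41 ± 0.309 after activin and 0.74 ± 0.105 after both, and that of EZH2 to EED 2.68 ± 0.0801, 2.61 ± 0.423 and 1.79 ± 0.250. For both ratios control and activin libraries overlapped, and the doubly treated libraries lay below all others (exact permutation p = 0.1 for either comparison with them). Against control the difference was -0.30 for SUZ12 and -0.89 for EED.

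The balance of DNMT1 and UHRF1 with each other and with PCNA, the sliding clamp of the replication fork, showed no separation of groups. The log2 ratio of UHRF1 to DNMT1 was 0.01 ± 0.184 in control cells, -0.20 ± 0.224 after activin and -0.08 ± 0.283 after both, with overlap throughout. That of DNMT1 to PCNA was -3.14 ± 0.137, -2.93 ± 0.266 and -3.19 ± 0.138, and that of UHRF1 to PCNA -3.14 ± 0.213, -3.13 ± 0.145 and -3.26 ± 0.192, again with overlap in all comparisons. For EZH2 the log2 ratio to PCNA was -3.65 ± 0.0531 in control cells, -2.75 ± 0.555 after activin and -3.83 ± 0.145 after both, and the activin libraries lay above all others (exact permutation p = 0.1 for either comparison with them). The log2 ratio of DNMT3A to DNMT3B overlapped between all groups, with means between -2.76 and -2.47.

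**Figure D3:**
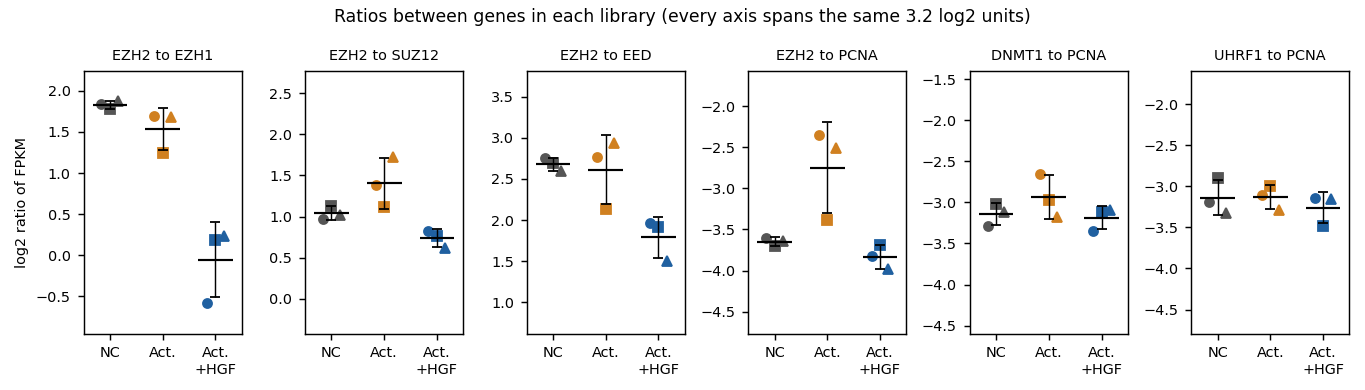
Log2 ratios of FPKM between genes within each library (vertical axes, all spanning the same number of log2 units); points are libraries, long bars means and whiskers 1 SD. EZH2 to EZH1 falls from a mean of 1.83 in NC to -0.06 after activin + HGF, while DNMT1 to PCNA and UHRF1 to PCNA overlap in all 3 groups.

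Replication genes were also lower after activin. PCNA was at 295, 275 and 281 CPM in control cells, 110.1, 151 and 138 CPM after activin and 116, 122 and 137 CPM after both factors (log2 fold change -1.09 with activin, adjusted p = 0.00163, and -0.09 at the HGF step, adjusted p = 0.749). Of 20 S phase genes, 15 fell and none rose with activin, 4 fell and none rose at the HGF step, and 18 fell after both (median log2 fold changes -1.47, -0.32 and -1.90). Over all genes 8.41%, 5.45% and 15% were lower in the same order. MCM2, a subunit of the replicative helicase, was at -2.46 for activin and -0.09 for the HGF step (adjusted p = 0.000444 and 0.867). Of 10 mitosis genes, 5 were lower after activin, 7 at the HGF step and 9 after both (medians -0.74, -0.92 and -1.56), and none higher. MKI67, the proliferation antigen, was at 616, 542 and 548 CPM in control cells, 235, 128 and 238 CPM after activin and 72.9, 78.5 and 28.6 CPM after both, and fell at both steps (-1.50 and -1.74, adjusted p = 0.0157 and 0.0148). With library totals the counts of lower genes were 15, 10 and 19 in S phase and 3, 9 and 9 in mitosis. Without activin replicate 2 the S phase counts were 17, 4 and 18 and the mitosis counts 7, 8 and 9. The part of these genes in the falls of DNMT1, UHRF1 and EZH2 was not tested.

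The genes whose log2 CPM followed DNMT1 most closely over the 9 libraries were TMEM248 (Pearson's r = 0.992), URB2 (0.989), ANXA4 (0.989), WDR77 (0.988) and RFC5 (0.988), among 9964 genes with a mean of at least 10 CPM. For EZH2 they were NBPF12 (0.987), GEN1 (0.986), IFNAR1 (0.985), TRIM59 (0.982) and USP40 (0.982), and for TET3 E2F8 (0.985), TICRR (0.980), ERBB3 (0.978), DGLUCY (0.978) and MAP4K4 (0.974). These correlations are descriptions over 3 groups of 3 libraries and share the libraries' scaling. DNMT1, EZH2 and TET3 were taken as the genes with the lowest p for any difference between groups, each within its role.

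Of 25 further genes of the DNA methylation machinery, 23 were tested, of which 9 were lower and none higher with activin, 2 were lower and none higher at the HGF step, and 9 were lower and 1 higher after both (median log2 fold changes -0.50, 0.02 and -0.70). In the same order 8.41%, 5.45% and 15% of all genes were lower and 9.58%, 7.41% and 16.4% higher. With library totals 5 of the 23 were lower with activin, and without activin replicate 2 the HGF step had 2 higher and 2 lower. PCNA belongs to this list and to the S phase list. MAT2A, which makes the methyl donor S-adenosylmethionine, fell at both steps, from 363, 317 and 334 CPM in control cells to 187, 133 and 239.9 CPM and then to 83, 73.6 and 119.8 CPM (-0.86 and -1.02, adjusted p = 0.0344 and 0.0257). KDM1A, a histone demethylase that also stabilises DNMT1, was at -0.73 with activin (adjusted p = 0.00643) and at 0.03 at the HGF step (adjusted p = 0.93). TRDMT1, a tRNA methyltransferase related to the DNMT family, fell at the HGF step (-2.10, adjusted p = 0.00694). With activin it was at -0.30 (adjusted p = 0.588), and the difference between the steps missed the threshold (adjusted p = 0.0671). HELLS, a chromatin remodeller needed for methylation of repeats, fell with activin (-1.40, adjusted p = 0.0386). Without activin replicate 2 the HELLS call was lost (-1.24, adjusted p = 0.115), as was that of MAT2A for activin (-0.67, adjusted p = 0.0681). Both calls were also lost with library totals (-1.31 for HELLS and -0.76 for MAT2A, edgeR adjusted p = 0.076 and 0.0889).

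Accessory subunits of Polycomb repressive complex 2 moved in both directions. Of 11 accessory and alternative subunits, 10 were tested, with 2 higher and 1 lower for activin, 1 and 2 for the HGF step and 2 and 4 for both factors (medians -0.22, -0.01 and -0.50). Among all genes 9.58% were higher and 8.41% lower for activin, 7.41% and 5.45% for the HGF step and 16.4% and 15% for both. The activin count was 2 higher and 2 lower without activin replicate 2, and with library totals the count for the HGF step was 0 and 2 and that for both factors 2 and 6. PHF1, a Polycomb-like protein that tethers the complex to chromatin, rose from 27.2, 27.9 and 26.2 CPM in control cells to 50.3, 63.6 and 50.5 CPM with activin and to 103, 78.7 and 74 CPM with both (1.02 and 0.64 for the steps, adjusted p = 0.0041 and 0.0439). The rise at the HGF step was lost when libraries were scaled by their totals (0.29, adjusted p = 0.201). JARID2, which helps to recruit and regulate the complex, rose with activin (0.85, adjusted p = 0.00397) and was 1.32 above control after both (adjusted p = 0.000225). PHF19, another Polycomb-like protein, fell at the HGF step (-0.69, adjusted p = 0.0306) and against control (-1.11, adjusted p = 0.00123). LCOR fell at the HGF step, from 114, 43.4 and 94.2 CPM to 21.5, 29.4 and 33 CPM (-1.58, adjusted p = 0.0162).

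Of the 24 subunits of Polycomb repressive complex 1, which reads the lysine 27 mark or ubiquitinates histone H2A, 3 were higher and 3 lower with activin, 1 and 1 at the HGF step, and 7 and 2 after both (medians 0.17, 0.08 and -0.00). Of all genes tested 9.58% were higher and 8.41% lower with activin, 7.41% and 5.45% at the HGF step, and 16.4% and 15% after both. With library totals the counts of the 24 after both became 3 higher and 5 lower, and their median at the HGF step -0.29. Without activin replicate 2 the counts were 4 higher and 2 lower with activin, 3 and 1 at the HGF step, and 8 and 3 after both. CBX8, a chromodomain subunit, rose at the HGF step (1.03, adjusted p = 0.0202). Of 10 tested enzymes that remove or oppose the mark, the demethylase KDM6B was the only one to rise with activin, from 36, 45.7 and 37.4 CPM to 117, 159 and 86 CPM (1.60, adjusted p = 0.0013), and none fell. After the HGF step KDM6B was at 104, 122 and 133 CPM (-0.01, 95% interval -0.51 to 0.49). NSD1, which methylates lysine 36 of the same histone, was 2.06 below control after both factors on the log2 scale (adjusted p = 0.00194). With library totals 4 of the 10 were lower at the HGF step and 4 after both, against 1 and 1 with TMM.

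**Figure D4:**
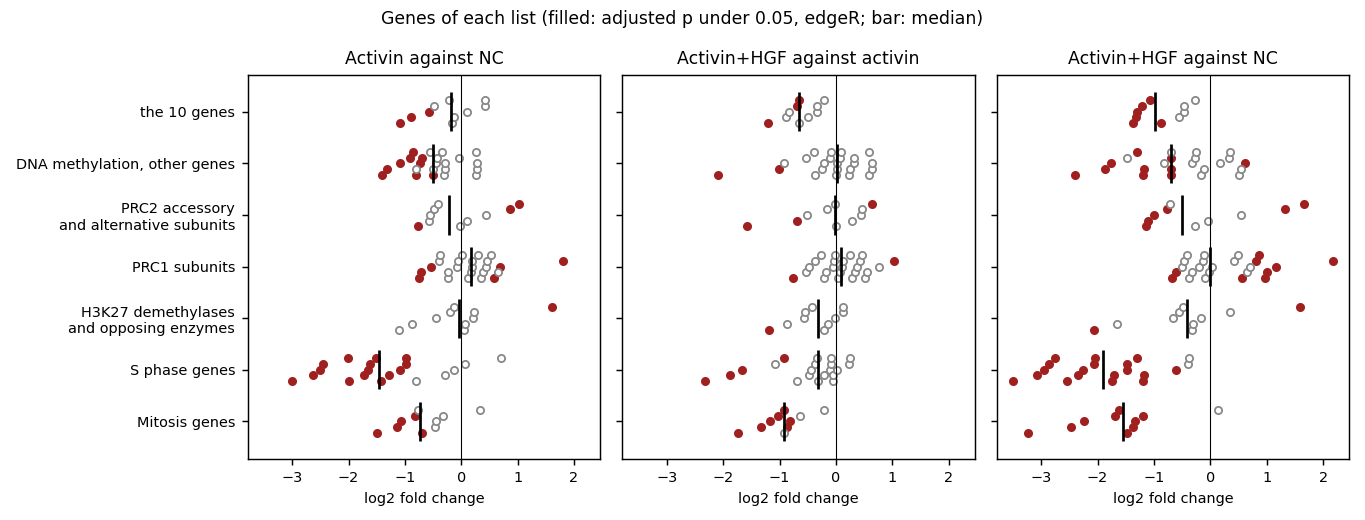
Log2 fold changes of every tested gene (points, horizontal axes) of the lists named on the left in the 3 comparisons; filled points passed the test at an adjusted p under 0.05 and the vertical bar is the median of the list. The S phase median is -1.47 for activin against NC and -0.32 for activin + HGF against activin, while the PRC1 points spread to both sides of 0.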

How the data were processed

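The 9 libraries, made from HCT116 RNA depleted of ribosomal RNA, were grouped by the treatment named in their labels, with 3 in each of the groups NC, activin and activin + HGF. The data are 1 table by gene, in which the authors give each library a column of read counts and a column of FPKM values. Per the labels, the submitters' processing notes name cutadapt 1.9, HISAT2 2.0.4 and StringTie 1.3.4d. The counts were deposited unnormalized, the FPKM values deposited by the authors are scaled by gene length and library size, and the counting program, strand setting and genome build are not given in the sources used here. Gene ends were identical to GRCh38 annotation for 7 of 10 genes. Of counts from 1 to 40, 35.0% were multiples of 4, and division by 4 was tried as an alternative. The table held 0 columns of other series.

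Counts were tested with edgeR 4.0.16 (quasi-likelihood F-test, filterByExpr, TMM, group means, all 9 libraries), with Benjamini-Hochberg adjustment over 20988 genes. Standard errors were taken from the fold change and the F statistic, and CPM values are TMM-scaled. FPKM served for levels between genes and for ratios, which were compared by two-sided exact permutation tests. Tested alternatives were DESeq2 1.42.0, limma 3.58.1 on log2(FPKM + 0.1) and log2(FPKM + 1), other scalings, filters and thresholds, a replicate block and each library left out. Scripts were tested on simulated data. R 4.3.3, Python 3.11.15, pandas 2.3.3 and matplotlib 3.10.9 were used.

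All 10 genes are named in each comparison. From the other lists the 4 called genes with the smallest p may be named, and any list gene with its role; from the S phase and mitosis lists PCNA, MCM2, MKI67 and TOP2A. The 10 genes, the lists and the tests were chosen with earlier results of these data known. A count of 3 in a library, the floor used here, corresponds to at most 0.0551 CPM. Promoter sequences come from RefSeq (GRCh38.p14), in which all 10 genes were matched by symbol.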

Additional observations from a re-analysis of the deposited data

How the results depend on the processing

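The direction of a called change of the 10 genes held under every alternative run. Changes that were not called reversed in a few fits. TET1 with activin was at -0.23 without activin replicate 1 (range over left-out libraries -0.23 to 0.50), and EZH2 with activin at 0.018 without activin replicate 2 (range -0.28 to 0.018). The difference between the steps reversed for SUZ12, at -0.16 without control replicate 1, -0.07 without activin replicate 2 and -0.09 without activin replicate 3 (range -0.16 to 0.16), and for TET2, at 0.039 without activin replicate 1 (range -1.01 to 0.039).

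With activin, 1 of the 10 genes was called under the 2-fold rule, and 2 to 3 with a library left out. At the HGF step, the number was 5 with library totals, 6 with limma on log2(FPKM + 1) at an FPKM of at least 0.5 in 3 libraries, and 1 each with only the 6 libraries compared, with the 2-fold rule and at an adjusted p under 0.01, and 1 to 5 with a library left out, the 5 without activin replicate 2. The fits with 1 gene called kept EZH2. In the limma fit with 6 of the 10 called, 3355 of all 15162 genes were called, 853 higher and 2502 lower. The median log2 fold change of all genes in that fit was -0.22. For both factors against control the number of the 10 called was 5 to 6 with a library left out. For the difference between the steps it was 0 at an adjusted p under 0.01 and 0 to 3 with a library left out, the 3 without activin replicate 2. Over all genes, 3776, 2698, 6587 and 1921 were called in the same order. With activin the 2-fold rule gave 2394, an adjusted p under 0.01 gave 1688, and leaving out a library 2021 to 4729. At the HGF step the count was 714 with only the 6 libraries compared, 4511 with DESeq2, 1697 with the 2-fold rule, 488 at an adjusted p under 0.01, and 686 (without activin replicate 1) to 4533 (without activin replicate 2). For both factors it was 3492 at an adjusted p under 0.01 and 4260 to 7798 with a library left out. For the difference between the steps it was 544 at an adjusted p under 0.01 and 740 to 2776 with a library left out. The cause of these changes was not tested. Library totals in place of TMM moved the median log2 fold change of all genes to 0.10, -0.38 and -0.30 and the calls to 2253 higher and 1295 lower, 692 and 2416, and 2447 and 4290, against 2010 and 1766, 1555 and 1143, and 3447 and 3140.

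Libraries with the same replicate number showed little common deviation (r between -0.103 and 0.195 over 9 pairs of libraries, mean 0.0307). The highest r was that of control replicate 2 with activin replicate 2. Pairs of unlike number between groups spanned -0.140 to 0.149. These values cannot exclude that libraries of a number were handled together, and the labels do not say so. With the replicate block 3362, 2044 and 6088 genes were called, among them 2, 3 and 6 of the 10, and SUZ12 lost its call with activin (adjusted p = 0.0714). With 3 libraries a group and TET1 at 1455 counts in all, the intervals of TET1 and DNMT3A were wide. The lack of a call does not show that these genes were unchanged, and how small a change could be detected was not computed.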

Other observations

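Genes known as targets of DNA methylation were read from the same fit. Of 22 genes with CpG islands often methylated in colorectal tumours, 13 were tested, of which 2 were higher and none lower with activin, 6 higher and none lower at the HGF step, and 5 higher and 1 lower after both factors. The shares over all genes were 9.58%, 7.41% and 16.4% higher and 8.41%, 5.45% and 15% lower. With library totals the 6 became 3 higher and 1 lower, and without activin replicate 2, which left 15 tested, 1 was lower with activin. SOCS1, an inhibitor of cytokine signalling, was at 1.34, 1.25 and 0.969 CPM in control cells, 5.10, 9.37 and 4.99 CPM after activin and 19.2, 16.7 and 16.5 CPM after both, and rose at both steps (log2 fold change 2.45 and 1.43, edgeR adjusted p = 0.000485 and 0.0127). TIMP3, an inhibitor of metalloproteinases, rose with activin (1.68, adjusted p = 0.000835). IGFBP3, which binds insulin-like growth factors, rose at the HGF step (1.82, adjusted p = 0.00563). GATA5, a transcription factor of gut and heart, had 0 counts in all control and activin libraries. The doubly treated libraries had 26, 16 and 12 counts. GATA5 was among the 6 called higher at the HGF step, and with 0 counts elsewhere it could only count as higher. That call was lost with library totals (edgeR adjusted p = 0.0529) and without activin replicate 2 (adjusted p = 0.0599). VIM, the mesenchymal filament vimentin, was lower than control after both (-2.66, adjusted p = 0.00707). Its control libraries were uneven, at 4.98 to 22.0 CPM, against 1.40 to 4.41 CPM in the doubly treated libraries. Promoter methylation was not measured here.

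Of 20 imprinted genes, 14 were tested, with 3 higher and 1 lower for activin, 3 and 3 for the HGF step and 4 and 3 for both factors. In these comparisons 18%, 12.9% and 31.4% of all genes were called. With activin replicate 2 left out and 15 imprinted genes tested, 2 of them were lower with activin. KCNQ1OT1 was among the 4 higher after both factors (2.92). Its doubly treated libraries spanned 2.82 to 63.6 CPM, against 2.60 to 4.15 CPM in control libraries. That call was lost with library totals (edgeR adjusted p = 0.0579) and without activin replicate 2 (adjusted p = 0.0601). CDKN1C, a cyclin-dependent kinase inhibitor, was at 5.65, 6.14 and 5.33 CPM in control cells, 36.7, 57.7 and 26.0 CPM after activin and 239.1, 103 and 101.3 CPM after both (2.81 and 1.88 for the steps, adjusted p = 0.00106 and 0.013). PHLDA2, its neighbour in the same imprinted cluster, also rose at both steps (1.00 and 1.87, adjusted p = 0.0232 and 0.00479). GRB10, a growth factor receptor adaptor, rose with activin (1.35, adjusted p = 0.00147) and fell at the HGF step (-0.97, adjusted p = 0.0143). Of 20 germline genes kept silent by promoter methylation in many tissues, 11 had a row and 4 were tested, of which MAGEB2 fell with activin (-0.54, adjusted p = 0.0325) and none rose. MAGEB2 was not silent in these cells, with means of 164 CPM in control cells, 113 after activin and 148 after both factors. MAGEA3 had a mean of 36.6 CPM in control cells. When activin replicate 2 was left out and 6 germline genes were tested, 1 was higher at the HGF step and 1 against control. Germline genes other than MAGEA3 and MAGEB2 reached at most 0.439 CPM in any library (DDX4, 33 counts). Genes at that level can pass the count filter through a single group, so no release from silencing is read from these calls.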
